A study of Mus musculus with 18 samples.

Results

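Gene expression in the brains of 5xFAD mice was set against that of wild-type (WT) mice, both kept on a control diet for 1 month. The comparison rests on 12 of the 18 libraries of the study, 6 labelled 5xFAD and 6 labelled WT, and covers every gene of the deposited table that passed a filter on low counts, 18117 of 48440 genes. The other 6 libraries, from mice given fucose, were not used. Polyadenylated RNA from brain was copied into randomly primed cDNA and sequenced. The labels give genotype, tissue, diet and its length. They give no age, sex, brain region or litter, and do not state that each library is a separate animal, so p-values measure the spread between these libraries, which may in part be technical.

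5xFAD mice carry human transgenes with familial Alzheimer's disease mutations, mutated APP among them, driven by regulatory elements of the neuronal mouse gene Thy1. The transgene products raise amyloid-beta, and amyloid plaques form in the brain. Microglia, the resident macrophages of the brain, gather around plaques and take up a state that depends on the receptor TREM2 and its adaptor TYROBP. Genes of lysosomes, lipid handling and phagocytosis are known to be high in that state, and astrocytes nearby make more of the filament protein GFAP. The reads were aligned by the authors to the mouse genome, so the human transgenes have no row of their own in the table. In bulk tissue, more cells of a type and more RNA per cell cannot be told apart.

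Values below are normalized counts, a gene's reads divided by 1 size factor per library, and they are not corrected for gene length. Where 3 values are given for a group, they are its lowest, median and highest library. Library totals over all genes were 39.7 ± 3.5 M reads in 5xFAD libraries and 38.98 ± 4.73 M reads in WT libraries (SD, n = 6 each), with a range of 31.45 to 44.23 M reads. Where a library had no read of a gene, up to 3 reads remain possible from counting error alone, which is 2.66 to 3.72 normalized counts depending on the library. The Y-linked gene Ddx3y was at 1797 normalized counts in 5xFAD replicate 5 and at 1703 in WT replicate 4, and at or below 1.969 in the other 10 libraries. Xist was at 6.597 in 5xFAD replicate 5 and 11.71 in WT replicate 4, and between 7292 and 11755 in the other 10. Counts of calls were therefore also computed without this pair of libraries.

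The mouse counterpart of the APP transgene was examined first. Mouse App had a lowest, median and highest normalized count of 49607, 54827 and 56550 in 5xFAD brain, against 54664, 57903 and 62249 in WT brain. The groups overlapped and App did not pass the test, with a log2 fold change, 5xFAD over WT, of -0.09 ± 0.06 (SE, adjusted p = 0.601). Here and below, adjusted p is the Benjamini-Hochberg value from limma over all 18117 genes, and the threshold is 0.05. Thy1, whose regulatory elements drive the transgenes, had 113472, 135945 and 158017 in 5xFAD brain, against 40379, 48678 and 58895 in WT brain. Every 5xFAD library lay above every WT library, with a log2 fold change of 1.51 ± 0.10 and an adjusted p of 2.2e-08. The share of these Thy1 reads that comes from the transgenes was not tested.

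In all, 394 genes (2.17% of those tested) passed the threshold. Of these, 355 were higher in 5xFAD brain (1.96%) and 39 were lower (0.215%). The higher genes had a median log2 fold change of 1.01, with 180 above 2-fold, 61 above 4-fold and 25 above 8-fold. Among the lower genes the median was -0.49, and 8 lay beyond 2-fold. Over all tested genes the median was -0.009. All 5xFAD libraries lay above all WT libraries for 335 tested genes (1.85%) and below them for 49 (0.27%). That separation held for 285 of the 355 higher genes and for 21 of the 39 lower ones. Genes called higher took 2.994% to 3.632% of the reads of a 5xFAD library, against 1.597% to 1.936% of a WT library. The direction of this gap follows from how the genes were chosen, so only its size is informative. Without 5xFAD replicate 5 and WT replicate 4, 301 genes were higher and 24 lower.

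**Figure D1:**
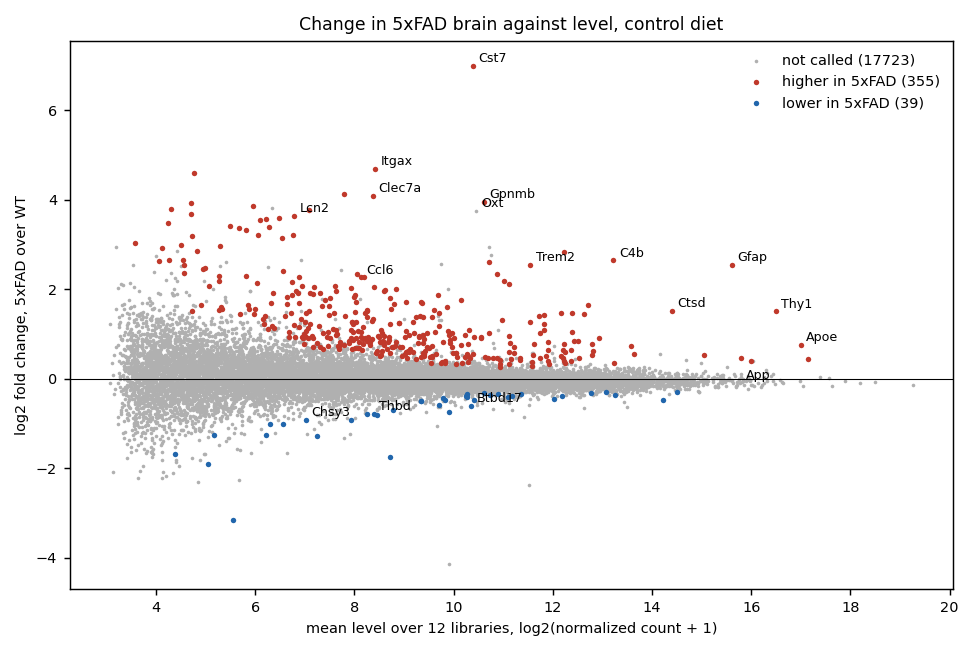
Log2 fold change, 5xFAD over WT, against the mean level of each of the 18117 tested genes over 12 libraries, as log2(normalized count + 1). Coloured points are the 355 genes called higher and the 39 called lower in 5xFAD, and grey points the rest; the higher genes reach a log2 fold change of 7.001 (Cst7), while all but 8 of the lower genes stay within 2-fold.

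The promoter windows of 4 higher genes are shown because they hold the letters GAGGAAG, a core of the site bound by PU.1, the macrophage transcription factor that Spi1 encodes. They are 4 higher genes of small p with these letters, on either strand, in the 250 bases before the RefSeq gene start (build GRCm38.p6). Each window lies outside the gene as deposited. Not every higher gene was considered for printing, so others of smaller p may also hold these letters. Capitals mark the match, and each window is printed 5′ to 3′ on the strand of its gene. Trem2, on the plus strand, has its window at chr17:48346151-48346400. The window of AU020206, a long non-coding RNA gene on the minus strand, is at chr7:75782121-75782370. Man2b1, a lysosomal mannosidase gene on the plus strand, has chr8:85083019-85083268. For Lair1, an inhibitory collagen receptor gene on the minus strand, it is chr7:4063205-4063454.
Trem2: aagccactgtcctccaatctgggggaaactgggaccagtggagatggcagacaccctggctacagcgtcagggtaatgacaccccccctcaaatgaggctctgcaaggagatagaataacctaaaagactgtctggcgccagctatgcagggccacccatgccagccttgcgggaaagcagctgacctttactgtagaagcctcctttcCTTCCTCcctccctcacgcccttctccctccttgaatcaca
AU020206: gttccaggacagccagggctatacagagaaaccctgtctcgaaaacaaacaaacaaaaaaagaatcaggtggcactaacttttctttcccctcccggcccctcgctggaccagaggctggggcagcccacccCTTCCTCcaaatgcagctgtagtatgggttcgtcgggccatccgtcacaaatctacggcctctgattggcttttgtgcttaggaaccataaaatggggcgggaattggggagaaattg
Man2b1: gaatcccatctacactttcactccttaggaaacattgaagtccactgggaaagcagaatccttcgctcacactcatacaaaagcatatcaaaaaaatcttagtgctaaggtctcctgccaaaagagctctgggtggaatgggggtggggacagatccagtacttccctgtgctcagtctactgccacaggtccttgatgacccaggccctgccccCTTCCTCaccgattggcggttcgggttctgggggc
Lair1: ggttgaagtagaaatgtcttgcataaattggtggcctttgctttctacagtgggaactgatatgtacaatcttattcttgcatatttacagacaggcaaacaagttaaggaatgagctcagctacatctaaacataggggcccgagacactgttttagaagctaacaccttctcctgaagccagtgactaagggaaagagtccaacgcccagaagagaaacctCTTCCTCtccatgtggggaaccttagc
The match begins 41 bases before the gene start in Trem2, 118 in AU020206, 35 in Man2b1 and 27 in Lair1. Windows matched by symbol for 265 of the 355 higher genes, and 57 of them (21.5%) held GAGGAAG on either strand. This was so for 4 of 25 lower genes with a window, 10.8% (1335 of 12390) of all tested genes with a window, and 10.4% of all 27025 windows of the table. The AP-1 letters TGANTCA stood in 9.06% of the higher genes' windows, 4.45% of those of all tested genes and 6.87% of all windows. TCACGTG, an E-box of the kind found in lysosomal gene promoters, stood in 4.15%, 4.53% and 3.15% of these windows. All were searched on both strands, and matches to TGANTCA and TCACGTG can share bases. The shares were not tested.

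The largest changes included genes of plaque-associated microglia. Cst7, which encodes the cathepsin inhibitor cystatin F, had a lowest, median and highest normalized count of 1842, 2648 and 3848 in 5xFAD brain, against 8.1, 21.1 and 35.4 in WT brain. Its log2 fold change of 7.001 ± 0.284, or 128.1-fold, was the largest of the genes called (adjusted p = 2.88e-10). Itgax, the integrin alpha X chain (CD11c), had 500.1, 682 and 779.6 in 5xFAD brain, against 14.2, 23.6 and 34.3 in WT brain. It was 25.9-fold higher (log2 fold change 4.70 ± 0.21, adjusted p = 2.88e-10). Clec7a, the beta-glucan receptor dectin-1, stood at 475, 582 and 803 in 5xFAD brain, against 23.7, 35.8 and 47.0 in WT brain (log2 fold change 4.09 ± 0.19, adjusted p = 2.88e-10). For all of these the lowest 5xFAD library lay far above the highest WT library.

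Of 34 tested genes listed for plaque-associated microglia, 27 were higher and none lower. For this and every list count below, the shares over all tested genes were 1.96% called higher and 0.215% called lower. All had a log2 fold change above 0, with a median of 1.37 against -0.009 over all genes. Gpnmb, a transmembrane glycoprotein of lipid-laden macrophages, had 1781, 2945 and 4285 in 5xFAD brain, against 134, 166 and 279 in WT brain (log2 fold change 3.96 ± 0.23, adjusted p = 6.33e-08). Cd68, a lysosomal membrane protein of macrophages, had 2264, 2793 and 3834 in 5xFAD brain, against 296, 475 and 587 in WT brain. It was 6.08-fold higher, and the groups did not overlap for either gene. The oxysterol-producing enzyme gene Ch25h (log2 fold change 3.15), the galectin gene Lgals3 (1.96), the secreted protein gene Spp1 (1.76) and the growth factor gene Igf1 (1.07) were also higher. Apoe, which encodes the main lipid carrier of the brain, averaged 164214 ± 23184 in 5xFAD brain and 97257 ± 18523 in WT brain (SD, n = 6 each), a log2 fold change of 0.77 ± 0.12 (adjusted p = 0.00118). Lpl (0.36), Cox6a2 (0.35), Hif1a (0.21), Fabp5 (0.12), Cadm1 (0.12), Ank (0.08) and Serpine2 (0.06) did not pass. Leaving out single libraries gave 26 to 28 higher members, and leaving out 5xFAD replicate 5 and WT replicate 4 together gave 26.

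**Figure D2:**
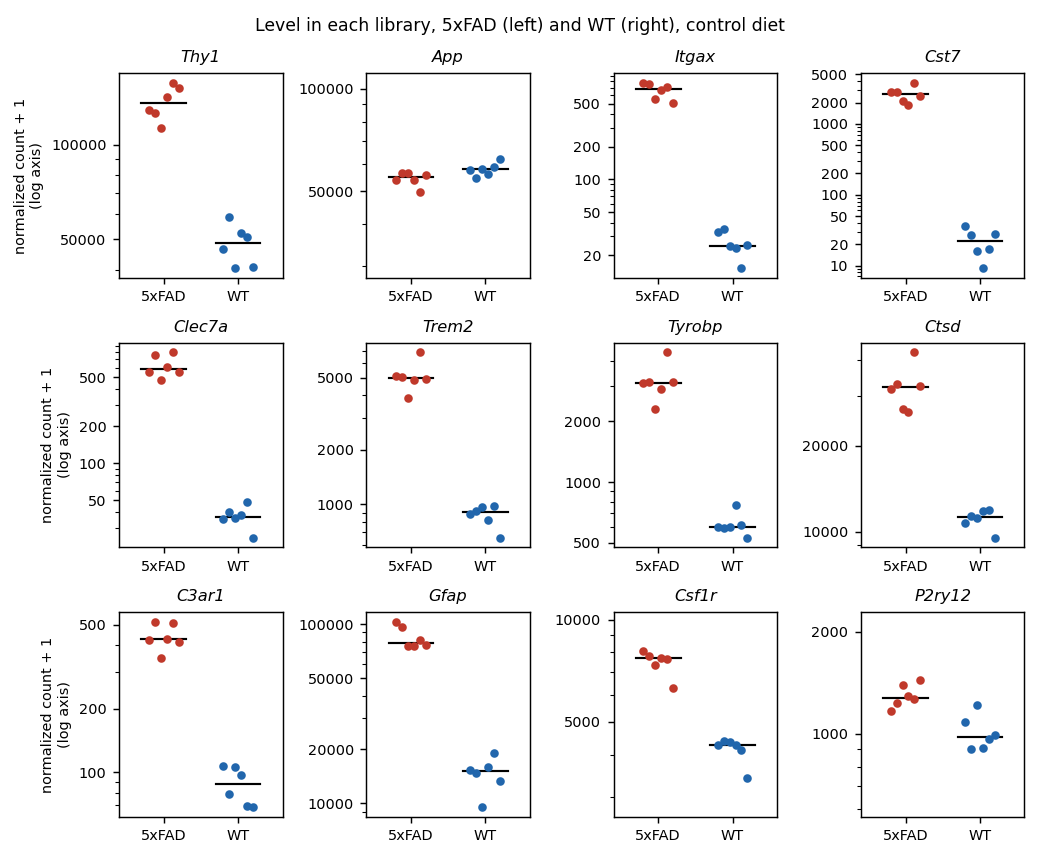
Level of 12 genes in each library, as normalized count + 1 on a log axis, with the 6 5xFAD libraries at the left, the 6 WT libraries at the right and a bar at each group's median. For App and P2ry12 the groups overlap, and for the other 10 genes every 5xFAD library lies above every WT library.

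The receptor complex on which that microglial state depends was also higher. Trem2, a receptor for lipids and amyloid, had 3840, 4998 and 6912 in 5xFAD brain, against 652, 904 and 980.1 in WT brain (log2 fold change 2.55 ± 0.12, adjusted p = 4.11e-10). Tyrobp, its signalling adaptor, had 2298, 3108 and 4415 in 5xFAD brain, against 527, 598 and 771 in WT brain (log2 fold change 2.34 ± 0.12, adjusted p = 1.23e-09). Neither gene's groups overlapped. Of 15 tested genes of this signalling pathway, 8 were higher and none lower, with a median log2 fold change of 0.90. Ptpn6, the phosphatase SHP-1 that restrains such signalling, was 3.52-fold higher. Vav1 (1.10), Inpp5d (1.03), Pik3cg (0.97), Lcp2 (0.90) and Plcg2 (0.88), which act downstream of or against the receptor, also passed. The kinase gene Syk (0.52, adjusted p = 0.254), the kinase gene Btk (0.46) and the adaptor genes Blnk (0.35) and Grb2 (0.03) did not.

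Genes that mark microglia in healthy brain had smaller fold changes. Of 16 tested, 9 were higher and none lower, with a median log2 fold change of 0.72. Gpr84 is counted among the 9, although its WT level, given below with the metabolite receptors, was low. Csf1r, the receptor on which microglia depend for survival, had 6292, 7685 and 8073 in 5xFAD brain, against 3417, 4281 and 4404 in WT brain, a log2 fold change of 0.85 ± 0.08. The groups did not overlap. The fractalkine receptor gene Cx3cr1 (0.96) and the receptor gene Gpr34 (1.03) had log2 fold changes close to that of Csf1r. P2ry12, a purinergic receptor used to identify resting microglia, had 1165, 1275 and 1437 in 5xFAD brain, against 902, 976 and 1211 in WT brain. These ranges overlap, and its call (log2 fold change 0.36 ± 0.09, adjusted p = 0.0359) was lost in 12 of 25 alternative settings. Tmem119, a surface marker of microglia (0.19 ± 0.08, adjusted p = 0.353), and Sall1, a transcription factor gene of microglia (0.21 ± 0.11, adjusted p = 0.5), did not pass. Without 5xFAD replicate 5 and WT replicate 4, 7 members were called.

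Among transcription factors of the macrophage lineage 9 of 19 were higher and none lower, with a median log2 fold change of 0.33. Spi1, which encodes PU.1, had 489, 670.1 and 869 in 5xFAD brain, against 198, 251 and 439 in WT brain (log2 fold change 1.25 ± 0.17, adjusted p = 0.000208). Irf8, a partner of PU.1, was 2.62-fold higher. Runx1 (1.12), Cebpa (0.98), Lyl1 (0.91), Irf5 (0.82), Ikzf1 (0.72) and Bhlhe41 (0.33) were also called. Tfeb and Tfe3, regulators of lysosomal genes, had log2 fold changes of 0.16 and -0.02 and did not pass. Leaving out single libraries gave 6 to 8 called members.

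Receptors for microbial and damage signals followed. Among Toll-like and other pattern receptors and their partners, 8 of 22 were higher and none lower. Cd180, a relative of the Toll-like receptors, had 235, 307 and 459.9 in 5xFAD brain, against 41.2, 79.5 and 97.6 in WT brain. Cd14, the co-receptor for lipopolysaccharide, was 2.96-fold higher, and Tlr1, Tlr2, Tlr6 and Tlr7 had log2 fold changes of 2.31, 1.42, 1.53 and 1.53. Tlr4 (1.02, adjusted p = 0.325) and the adaptor gene Myd88 (-0.01) did not pass. Of 6 receptors and adaptors for antibodies 4 were higher: Fcgr2b (2.01), Fcer1g (1.87), Fcgr3 (1.47) and Fcgr1 (1.05). Fcgrt, the neonatal Fc receptor gene, was at -0.20 and did not pass.

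Inhibitory receptors gave 6 higher and no lower genes of 15. Lilrb4a had the largest change, 3.77 ± 0.39 on the log2 scale, but 98.9% of its exon bases overlap other annotated genes, so its value is uncertain. Lair1, whose promoter window is printed above, had 454, 592 and 735 in 5xFAD brain, against 236, 246 and 284 in WT brain, 2.33-fold higher. The sialic acid receptor genes Cd22 (3.56), Siglecf (2.07) and Cd33 (0.84) and the checkpoint receptor gene Havcr2 (1.47) were also called. Cd22 had a WT range of 0 to 34.12, and its call was lost in 2 of 25 alternative settings. Sirpa, which restrains phagocytosis, was at 0.12 and did not pass.

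Among metabolite and purine receptors 8 of 15 were higher and none lower. Hcar2, a receptor for beta-hydroxybutyrate and niacin, had 58.5, 116 and 156 in 5xFAD brain, against 0, 10.1 and 16.1 in WT brain. The acid-sensing receptor gene Gpr65 (2.97) and the oxysterol receptor gene Gpr183 (2.06) were also higher. Gpr84, a receptor for medium-chain fatty acids, stood at 190.2, 239 and 431 in 5xFAD brain, against 48.0, 75.7 and 115 in WT brain, and 39.5% of its exon bases overlap another gene. Groups were apart for both Hcar2 and Gpr84. Without 5xFAD replicate 5 and WT replicate 4, 6 members were called.

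Secreted signals gave 8 higher and no lower genes of 24 tested. Ccl3, an inflammatory chemokine, had 261, 373 and 776 in 5xFAD brain, against 2.29, 32.1 and 38.5 in WT brain (log2 fold change 4.14 ± 0.55, adjusted p = 0.00043). Its neighbour Ccl4 had 66.2, 103 and 223 in 5xFAD brain, against 2.95, 11.1 and 25.6 in WT brain. Ccl6 was 4.83-fold higher, and Csf1, a ligand of Csf1r, 1.91-fold. Osm, which encodes the cytokine oncostatin M, had a log2 fold change of 2.65 ± 0.61. Il34, which encodes the other ligand of Csf1r, was at -0.15 and Cx3cl1, the neuronal ligand gene of Cx3cr1, at -0.27, and neither passed. The inflammatory cytokine gene Il1b averaged 26.4 ± 6.41 in 5xFAD brain and 13.8 ± 5.42 in WT brain (SD, n = 6 each) and did not pass (log2 fold change 0.96, adjusted p = 0.325). Tnf, Il6, Il12b and Il1rn were among the 8 listed members under the filter on low counts.

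Of 18 genes of NF-kappaB and TGF-beta signalling, 3 were higher and none lower. Bcl3, a nuclear regulator of NF-kappaB, had 176, 244 and 339 in 5xFAD brain, against 39.4, 63.2 and 112 in WT brain. The receptor gene Tgfbr2 (0.88) and its ligand gene Tgfb1 (0.99) were the others. Nfkb1 (0.19), Rela (0.27) and Nfkbia (0.14) did not pass.

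Lysosomal proteases and their inhibitors were higher in 13 of 18 cases and lower in none, with a median log2 fold change of 0.57. Ctsd, the main aspartic protease of the lysosome, had 26300, 32151 and 42685 in 5xFAD brain, against 9517, 11272 and 11953 in WT brain (log2 fold change 1.52 ± 0.10, adjusted p = 2.17e-08), and 34.4% of its exon bases overlap another gene. Ctss, a cysteine protease of microglia, had 8663, 9063 and 10350 in 5xFAD brain, against 2924, 3390 and 3873 in WT brain (log2 fold change 1.46 ± 0.07, adjusted p = 4.11e-10). Groups were apart for both. Ctsz was 2.79-fold higher. Ctsb and Ctsl had log2 fold changes of 0.54 and 0.60, and Cst3, the abundant cystatin C gene, of 0.41. Ctse, another aspartic protease, had 14.2, 44.8 and 112 in 5xFAD brain, against 0, 0.886 and 3.79 in WT brain. The WT values of Ctse lie near what 3 reads are worth, so its fitted log2 fold change of 4.59 depends on the pseudocount. Ctsf (-0.05), Ctsk (-0.29), Ctso (0.18), Tpp1 (0.17) and Cstb (0.14) did not pass.

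Other lysosomal hydrolases and membrane proteins gave 12 higher and no lower genes of 30, with a median log2 fold change of 0.24. Laptm5, a lysosomal membrane protein of blood-lineage cells, was 2.76-fold higher. Man2b1, whose promoter window is printed above, had 4085, 4915 and 6012 in 5xFAD brain, against 1985, 2358 and 2613 in WT brain. Grn, the progranulin gene (1.05), Gusb (1.09), Hexa (0.82) and Npc2 (0.65) also passed. Lamp1 (0.22), Psap (0.13) and Npc1 (-0.06) did not. Fuca1, the lysosomal enzyme that removes fucose, had 2315, 2679 and 2860 in 5xFAD brain, against 1775, 1841 and 2251 in WT brain (log2 fold change 0.44 ± 0.08, adjusted p = 0.00401). It was the only called gene of 17 tested genes of fucose metabolism. Of 19 subunits and accessory proteins of the proton pump that acidifies lysosomes, Atp6v0d2 alone was called, at 7.98, 33.0 and 61.2 in 5xFAD brain, against 0, 0 and 10.6 in WT brain, with overlapping groups, and it was not called without 5xFAD replicate 5 and WT replicate 4.

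Complement genes were higher in 9 of 20 cases and lower in none. C1qc, a chain of the recognition molecule C1q, had 3785, 4858 and 5843 in 5xFAD brain, against 1372, 1932 and 2209 in WT brain. Its neighbours C1qa (log2 fold change 1.66) and C1qb (1.02) were called too. C4b, of the classical pathway, averaged 16261 ± 2312 in 5xFAD brain and 2814 ± 1578 in WT brain (SD, n = 6 each), and C3, the central component of the cascade, averaged 375 ± 152 in 5xFAD brain and 136 ± 64.3 in WT brain (SD, n = 6 each). Their log2 fold changes were 2.65 ± 0.25 and 1.49 ± 0.29. C3ar1, the receptor for the C3a fragment, had 348, 426 and 516 in 5xFAD brain, against 67.3, 87.1 and 106 in WT brain, with no overlap between the groups. The regulator genes Cd55 (-0.20) and Cd59a (0.05) did not pass.

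Of 13 genes of the oxidative burst and its control, 7 were higher and none lower. Cyba and Cybb, subunit genes of the phagocyte NADPH oxidase, had log2 fold changes of 1.53 and 1.92. Leukocyte adhesion and cytoskeleton genes gave 16 of 25, among them the integrin gene Itgb2 (2.65-fold) and the adhesion receptor gene Cd84 (4.85-fold). Phagocytic and scavenger receptors gave 4 of 18 and a median of 0.06. The called ones were Msr1 (3.68), Itgb5 (0.65), Pros1 (0.55) and Axl (0.46). Msr1 had 0, 3.61 and 15.31 in WT brain, with a median near what 3 reads are worth. Its log2 fold change ran from 2.55 to 4.12 over the alternative settings. The receptor genes Mertk (0.14) and Tyro3 (-0.19) and the bridging gene Mfge8 (-0.35) did not pass.

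Lipid handling genes were higher in 6 of 32 cases and lower in none. Clu, which encodes the secreted chaperone clusterin, had 59479, 64980 and 73576 in 5xFAD brain, against 40919, 48112 and 52668 in WT brain (log2 fold change 0.47 ± 0.07, adjusted p = 0.000608). Abca1, the cholesterol exporter gene, had 0.57, and Hpgds, a prostaglandin D synthase gene, 1.16. Among 13 genes for enzymes that can degrade amyloid-beta or activate such enzymes, only Plau, the urokinase gene, was called (3.69-fold higher). Mme, the neprilysin gene, averaged 143 ± 88.2 in 5xFAD brain and 336 ± 201 in WT brain (SD, n = 6 each) and did not pass (log2 fold change -1.23, adjusted p = 0.171), nor did Ide, the insulin-degrading enzyme gene (0.20). No gene of 15 in the list of secretases and their substrates was called, with log2 fold changes of -0.20 to 0.19. Their summed level was below every WT library in each 5xFAD library, with a lowest, median and highest value of 163482, 167795 and 172606 in 5xFAD libraries, against 172927, 175955 and 190669 in WT libraries. The highest 5xFAD sum nearly reached the lowest WT sum. App, whose groups overlapped, is a large part of these sums, with medians of 54827 in 5xFAD brain and 57903 in WT brain. Iron genes gave 3 of 11: the phagosomal transporter gene Slc11a1 (1.97), the heme oxygenase gene Hmox1 (0.94) and the ferritin gene Fth1 (0.44, lost in 16 of 25 alternative settings).

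**Figure D3:**
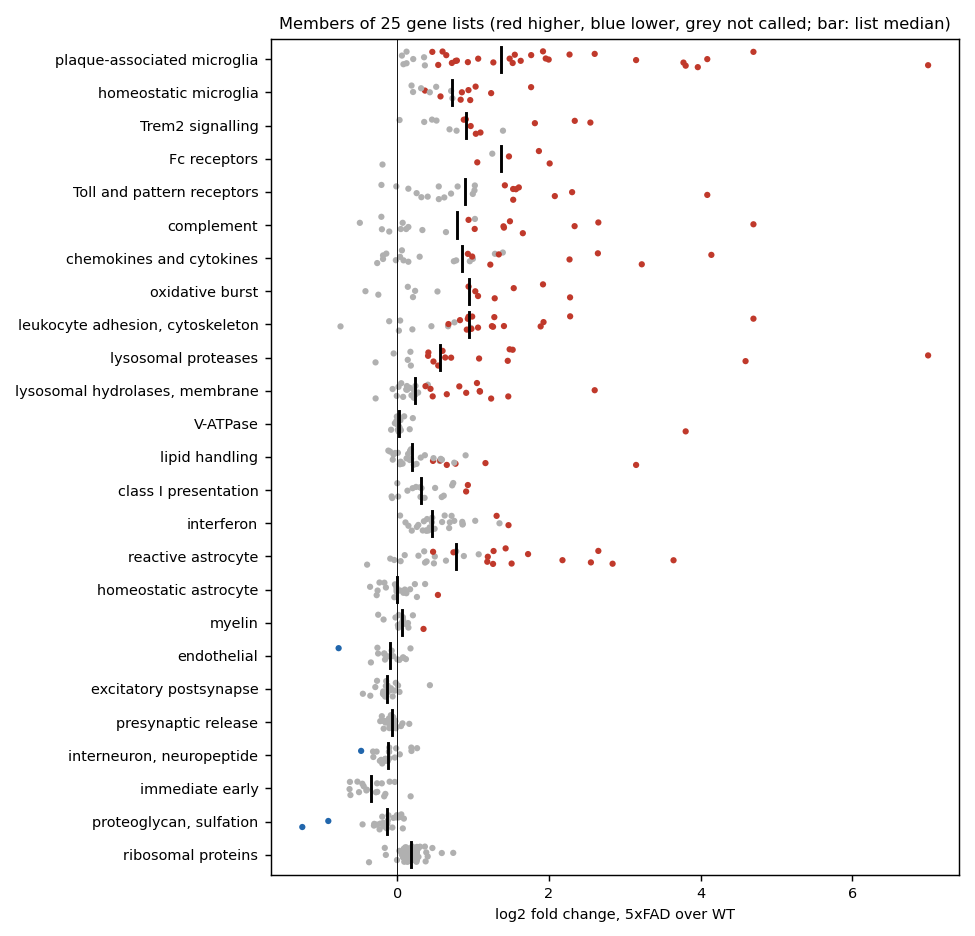
Log2 fold change, 5xFAD over WT, of each tested member of 25 gene lists, with a bar at the list median and called members coloured. The list median is 1.37 for plaque-associated microglia and -0.14 for the excitatory postsynapse, where no member was called.

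Antigen presentation and interferon genes gave few calls. B2m, the light chain of class I molecules, had 7525, 9745 and 14209 in 5xFAD brain, against 4691, 5080 and 6570 in WT brain, a log2 fold change of 0.91 ± 0.13. With the immunoproteasome gene Psmb8 (0.93) it made 2 calls of 18 class I genes. H2-D1 (0.74, adjusted p = 0.084) and H2-K1 (0.58) did not pass. Among 10 genes of class II presentation and co-stimulation, the ligand gene Cd86 alone was higher (1.26), and Cd74 and H2-Ab1 stood at 0.41 and -0.06. All 29 interferon-stimulated genes had a log2 fold change above 0, with a median of 0.46, yet Lgals3bp (1.31) and Ifi27l2a (1.47) were the only ones called. The call of Lgals3bp was lost in none of the 25 alternative settings, and that of Ifi27l2a, whose groups overlapped (adjusted p = 0.0375), in 14 of 25 alternative settings. The summed level of the interferon-stimulated genes had a lowest, median and highest value of 11844, 12958 and 20166 in 5xFAD libraries, against 7706, 9039 and 14626 in WT libraries, so the groups overlapped. Leaving out single libraries gave 1 to 6 called members.

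Genes listed for astrocytes included some of the largest changes outside the lists for microglia. The cells that made these transcripts were not tested. Gfap, which encodes an intermediate filament of reactive astrocytes, had 75833, 79090 and 103542 in 5xFAD brain, against 9490, 15155 and 19090 in WT brain (log2 fold change 2.55 ± 0.14, adjusted p = 1.77e-08). Serpina3n, a secreted protease inhibitor, had 6583, 7631 and 12190 in 5xFAD brain, against 909, 1082 and 1663 in WT brain, 7.16-fold higher. Groups were apart for both, and Vim, another filament gene, was 2.69-fold higher. Of 29 tested genes listed for reactive astrocytes, 14 were higher and none lower, with a median log2 fold change of 0.78. Among them, C4b is also counted with the complement genes and Cd44 with the leukocyte genes. Osmr, the oncostatin M receptor gene (1.51), and Stat3, a transcription factor gene downstream of it (0.47), were called. Lcn2, a lipid-carrying protein, had 53.3, 128 and 638 in 5xFAD brain, against 0, 11.0 and 43.2 in WT brain, and its call (adjusted p = 0.0471) was lost in 15 of 25 alternative settings. Iigp1 (0.49), Cxcl10 (0.78) and Gbp2 (0.39), which are also interferon targets, did not pass.

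Of genes for the ordinary work of astrocytes, 1 of 20 was called, with a list median of -0.01. The called gene was the water channel gene Aqp4 at 3267, 3480 and 4138 in 5xFAD brain, against 2080, 2364 and 3690 in WT brain (log2 fold change 0.54 ± 0.12, adjusted p = 0.0211). Its groups overlapped, and the call was lost without 5xFAD replicate 5 and WT replicate 4. The glutamate transporter genes Slc1a2 (-0.17) and Slc1a3 (0.17), the connexin gene Gja1 (-0.01) and Aldh1l1 (0.12 ± 0.10) did not pass.

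**Figure D4:**
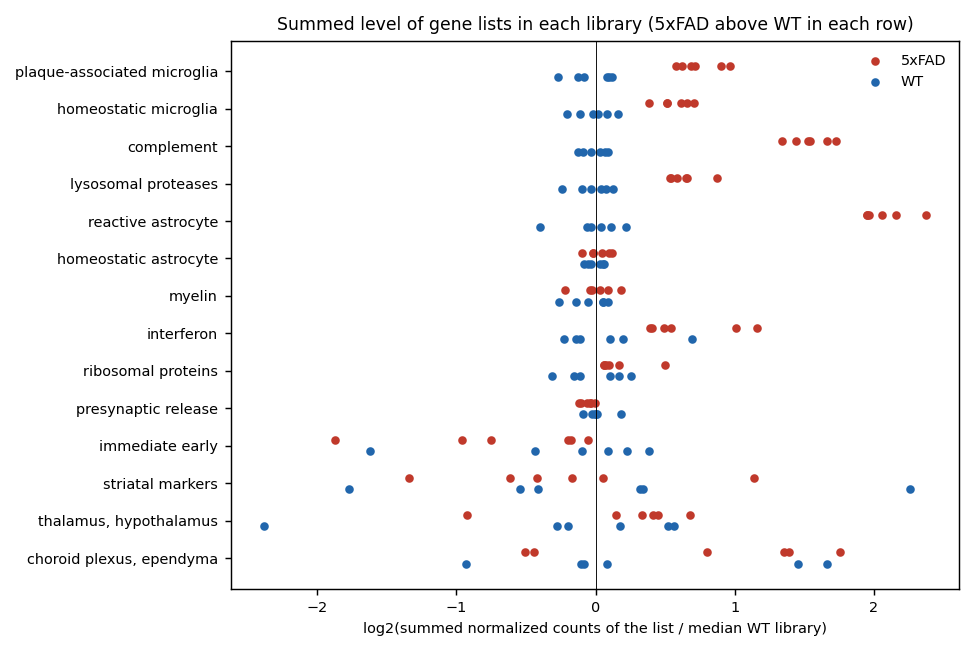
Summed normalized counts of 14 gene lists in each library, as log2 of the ratio to the median WT library, with 5xFAD libraries drawn above WT libraries in each row. The plaque-associated microglia sums run from 276425 to 361583 in 5xFAD libraries, above the WT range of 153383 to 201372. Apoe, the most abundant member of this list, makes up the largest part of these sums.

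Markers of other cells that could bring immune genes into the tissue were measured beside these lists. None of 9 markers of perivascular macrophages was called, and their summed level had a lowest, median and highest value of 216, 507 and 683 in 5xFAD libraries, against 303, 505 and 682 in WT libraries. Of 11 monocyte and neutrophil markers 3 passed the filter, and Lcn2, which reactive astrocytes also make, was the only one called. The summed level of all 11 was 104, 210.1 and 764 in 5xFAD libraries, against 27.5, 59.9 and 149.5 in WT libraries, with overlapping groups. Lcn2 is part of this sum, with a median of 128 in 5xFAD brain and 11.0 in WT brain. In 5xFAD replicate 1, which had the highest sum, Lcn2 made up 638 of the 764. Ccr2, S100a8 and S100a9 of this list were under the filter, while the monocyte marker Ly6c2 passed it and was not called. Of 17 lymphocyte markers 6 passed it and none was called, with a summed level of 199, 342 and 599 in 5xFAD libraries, against 133, 385 and 624 in WT libraries. No blood gene of 5, globins included, was called. Among 20 proliferation genes none was called, and Cdk1, which drives cells into mitosis, had 9.75, 24.2 and 37.5 in 5xFAD brain, against 0, 6.89 and 19.9 in WT brain (log2 fold change 1.89, adjusted p = 0.199). The part of these cells in the immune gene changes was not tested.

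Oligodendrocyte genes gave 1 call of 17, Cldn11 of the myelin tight junction (log2 fold change 0.34, lost in 9 of 25 alternative settings). Mbp, the myelin basic protein gene, had 166309, 197554 and 225691 in 5xFAD brain, against 160254, 200310 and 215322 in WT brain, a log2 fold change of 0.02 ± 0.09. No gene of oligodendrocyte precursors was called among 14, and their marker Pdgfra stood at -0.04 ± 0.10. None of 11 mural cell, 12 choroid plexus and ependymal, or 11 meningeal fibroblast genes was called. The choroid plexus and ependymal sums varied widely between libraries of both groups. They were 28848, 87977 and 138272 in 5xFAD libraries, against 21434, 40929 and 129189 in WT libraries, and overlapped. Endothelial genes gave 1 call of 16: Thbd, the anticoagulant receptor thrombomodulin gene, was lower, while Cldn5 (-0.17), Pecam1 (0.03) and Flt1 (-0.05) did not pass.

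Neuronal lists had medians slightly below 0 and nearly no calls. Among 22 genes of the excitatory postsynapse 19 had a log2 fold change below 0, with a median of -0.14, and none passed. Shank3, a postsynaptic scaffold gene, had 9363, 12355 and 14773 in 5xFAD brain, against 12981, 15528 and 18975 in WT brain (log2 fold change -0.36 ± 0.11, adjusted p = 0.125). Of 24 genes of presynaptic release 21 were below 0, with a median of -0.07 and no call. The synapsin gene Syn1 was at -0.12 ± 0.06 (adjusted p = 0.497). No GABA-A receptor gene of 12 was called. Vgf, a neuropeptide precursor gene, was the only call among 21 interneuron and neuropeptide genes. It had 12926, 16237 and 19900 in 5xFAD brain, against 18485, 22002 and 27616 in WT brain (log2 fold change -0.48 ± 0.12, adjusted p = 0.0379), with overlapping groups and a call lost in 9 of 25 alternative settings.

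Activity-induced immediate early genes had a median log2 fold change of -0.34, with 17 of 18 below 0 and no call. Egr3, a transcription factor gene induced by neuronal firing, had 337, 415 and 626 in 5xFAD brain, against 366, 614 and 1278 in WT brain, and the groups overlapped. The summed level of the list was 17526, 46853 and 61788 in 5xFAD libraries, against 20886, 64089 and 83729 in WT libraries, and leaving out single libraries moved the median between -0.649 and -0.161. None of the regional markers of striatum (9 tested), thalamus and hypothalamus (11), cerebellum and brainstem (6) or hippocampus (8) was called. The summed striatal markers had a lowest, median and highest value of 8472, 17528 and 47101 in 5xFAD libraries, against 6275, 21447 and 102451 in WT libraries. For thalamus and hypothalamus, whose median log2 fold change was 0.67, the sums were 10045, 24633 and 30476 in 5xFAD libraries, against 3648, 19037 and 28168 in WT libraries. For cerebellum and brainstem they were 1835, 2148 and 3216 in 5xFAD libraries, against 1022, 2702 and 4227 in WT libraries. Relative to their size the hippocampal sums spread least of the 4, at 11032, 13131 and 15220 in 5xFAD libraries, against 9376, 13494 and 15017 in WT libraries, and the groups overlapped in each list. Of 10 cortical layer genes Foxp2 alone was called, and none was without 5xFAD replicate 5 and WT replicate 4.

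The 39 lower genes put at most 2 members in any list. Btbd17 had the smallest p of them, with 789.7, 1029 and 1281 in 5xFAD brain, against 1346, 1525 and 1859 in WT brain (log2 fold change -0.60 ± 0.12, adjusted p = 0.00625). Kcnn3, a calcium-activated potassium channel gene, had 451, 560.2 and 612 in 5xFAD brain, against 692, 755 and 882 in WT brain (log2 fold change -0.49 ± 0.10, adjusted p = 0.00772). In both genes every 5xFAD library lay below every WT library. Thbd had 179, 266 and 311 in 5xFAD brain, against 301, 439.6 and 465 in WT brain, where WT replicate 6 alone fell within the 5xFAD range (log2 fold change -0.78 ± 0.17). Shc3, an adaptor gene of neurotrophin receptor signalling, was at -0.79 ± 0.17, and Rgs8, a regulator of G-protein signalling, at -0.38 ± 0.07. Ctxn3, a small membrane protein gene, had 131, 170.4 and 254 in 5xFAD brain, against 189, 727 and 963 in WT brain (log2 fold change -1.74 ± 0.33, adjusted p = 0.0093). Here WT replicate 1 alone fell within the range of the 5xFAD libraries. The call was lost in 4 of 25 alternative settings, among them those with the replicate number as a block, with the ribosomal protein level as a covariate and without 5xFAD replicate 5 and WT replicate 4.

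Other lower genes came from several processes. Hbegf, a ligand gene of the EGF receptor, was at -0.69 ± 0.14, and the calsyntenin gene Clstn3 at -0.28 ± 0.06. Apln, which encodes the peptide apelin, was at -0.73 ± 0.18, with overlapping groups and an adjusted p of 0.0483, and its call was lost in 13 of 25 alternative settings. The transcription factor gene Foxp2 was at -0.58 ± 0.13, and its call was lost in 7 of 25 alternative settings, among them the fit without 5xFAD replicate 5 and WT replicate 4. Rnase1, a secreted ribonuclease gene, had 5.56, 12.4 and 31.9 in 5xFAD brain, against 35.5, 51.2 and 61.0 in WT brain, with no overlap. Of 25 genes of proteoglycans and their sulfation, 2 were lower, against 0.215% of all tested genes. Chsy3, a chondroitin sulfate synthase gene, had 57.66, 90.86 and 106.7 in 5xFAD brain, against 107.1, 163.8 and 224.2 in WT brain. Hs6st3, a heparan sulfate sulfotransferase gene, had 21.7, 43.8 and 66.7 in 5xFAD brain, against 71.1, 91.2 and 177 in WT brain. For both genes the groups were apart, but the call was lost in 13 of 25 alternative settings for Chsy3 and in 15 of 25 alternative settings for Hs6st3. Arntl, which encodes the clock factor BMAL1 (-0.34, adjusted p = 0.0406), was the only call of 14 circadian genes, and the chaperone gene Hsph1 (-0.30, adjusted p = 0.0395) of 11 heat shock genes. Their calls were lost in 18 of 25 alternative settings for Arntl and in 17 of 25 alternative settings for Hsph1. Btbd17, Cdk2ap1, Kcnn3, Rgs8, Rnase1, Shc3 and Thbd were called lower in every alternative setting, the filter at a mean of 50 normalized counts left aside.

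**Figure D5:**
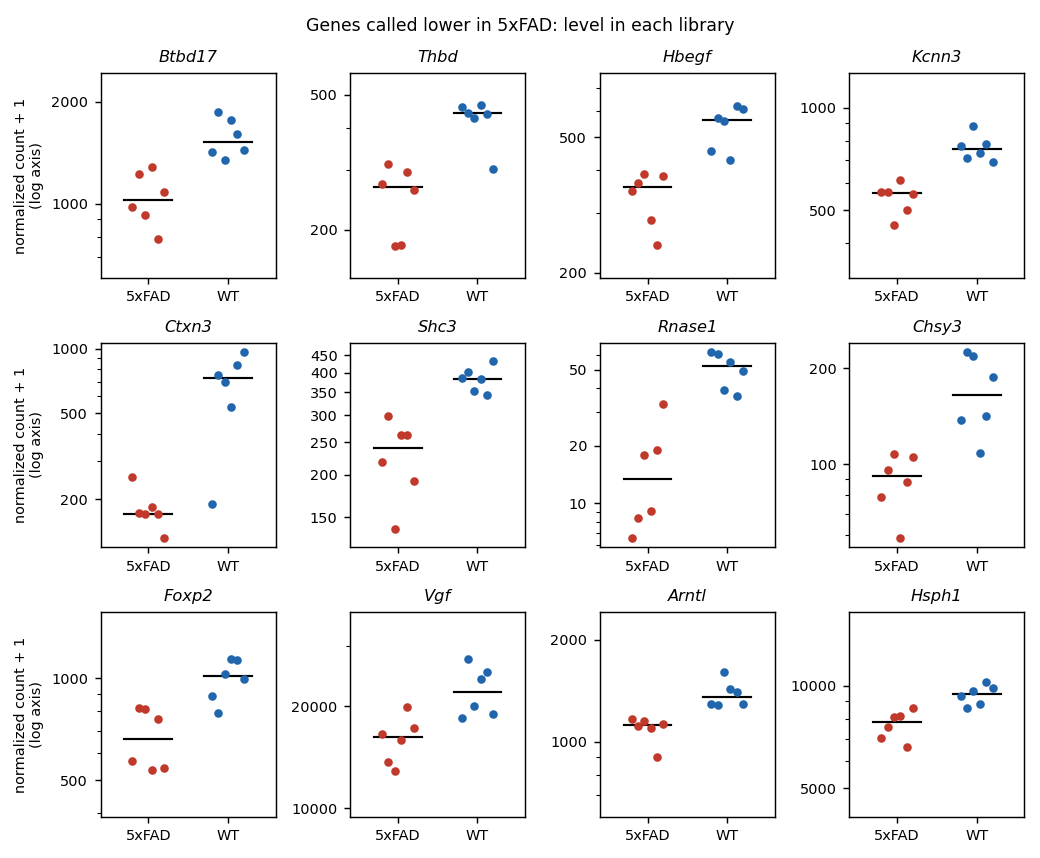
Level of 12 genes called lower in 5xFAD, in each of the 6 5xFAD libraries (left) and 6 WT libraries (right), as normalized count + 1 on a log axis with a bar at each group's median. The groups are apart for Btbd17, Hbegf, Kcnn3, Shc3, Rnase1, Chsy3, Arntl and Hsph1 and overlap for Thbd, Ctxn3, Foxp2 and Vgf.

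Ribosomal protein genes gave no call among 87 tested, but 83 of them had a log2 fold change above 0, with a median of 0.18. Their summed level had a lowest, median and highest value of 708735, 721265 and 961754 in 5xFAD libraries, against 547424, 680834 and 811420 in WT libraries, so the groups overlapped. With the mean log2 level of this list as a covariate, 301 genes were higher and 38 lower. Of these, 272 were among the 355 higher genes and 11 among the 39 lower ones. The part of the ribosomal level in the lower calls was not tested. Nuclear genes of the respiratory chain (0 of 77) and genes of the mitochondrial genome (0 of 13) gave no call. Glycolysis genes gave 2 of 23, the lactate exporter gene Slc16a3 (0.92) and the hexokinase gene Hk3 (0.96, lost in 3 of 25 alternative settings), both higher. Cholesterol synthesis gave 1 of 21, the squalene synthase gene Fdft1 (0.35), and the unfolded protein response 1 of 13, the stress factor gene Atf3 (1.08, lost in 13 of 25 alternative settings). Those single calls were 4.76% and 7.69% of their lists, against 1.96% of all tested genes called higher.

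The libraries of each group differed in their levels of the higher genes. These genes took 2.994 to 3.632% of the reads in 5xFAD libraries and 1.597 to 1.936% in WT libraries. They were chosen for being higher in these 5xFAD libraries, so only the spread within each group is of interest here. Replicate 5 was the highest 5xFAD library for 120 of the 355 higher genes and replicate 1 for 103, while replicate 3 was the lowest for 97 and replicate 4 for 82. Among WT libraries, replicate 4 was the highest for 87 and replicate 6 the lowest for 112. The summed ribosomal protein level was also highest in replicate 5 (961754) among 5xFAD libraries, and highest in replicate 4 (811420) and lowest in replicate 6 (547424) among WT libraries. Its part in these differences was not tested. Of the 355 higher genes, 238 were called in every alternative setting, again with the filter at a mean of 50 normalized counts left aside.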

How the data were processed

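RNA-seq of brain was deposited by the authors as 1 table of normalized counts. Per the submitters' processing notes, reads were trimmed with Trimmomatic 0.39, aligned with HISAT2 2.2.1 to mm10, counted with featureCounts 2.0.3 and normalized with DESeq2 2.11.40.8. The deposited values are a signal, counts divided by 1 size factor per library. Dividing by the value of 1 read gave whole reads for 100.0% of values (tolerance 0.001). For strandedness and annotation, the sources used here give nothing. The table's fold changes and p-values were not used, nor were 2 value columns that matched no sample.

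Genes were kept with filterByExpr of edgeR 4.0.16 (minimum count 10) on the recovered reads. Differences between groups were tested with limma 3.58.1 (R 4.3.3) on log2(normalized count + 1), with trended and robust moderation, 2-sided, and Benjamini-Hochberg adjustment over the 18117 genes kept, at 0.05. A fold change on this scale understates the change of low genes. Library pairs of the same group differed by more than sampling noise (chi-square per degree of freedom 20.01 to 76.13 over 30 pairs), so no library was counted as a duplicate.

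The comparison and the 58 gene lists were chosen with earlier results of these data known. The text names the transgene genes, the 15 higher and 15 lower called genes of largest change with at least 1 CPM, the 15 higher genes of smallest p, up to 3 called members of each list (2 members where none was called) and 1 marker per cell type; the rankings skip predicted and sex-linked genes. Other list members are named to show the range of a list and were chosen after their values were seen. Some genes that the rule names are not reported here. Exon overlap was taken from GENCODE M21, where 40606 of the 48440 gene identifiers had the same version. Promoter windows came from RefSeq (GRCm38.p6). There were 25 alternative settings, DESeq2 1.42.0 among them. The 6 libraries from mice on fucose were left out.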

Additional observations from a re-analysis of the deposited data

Results flagged for a closer look

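In 300 groups of 6 libraries, a gene's highest or lowest library was set against the nearest of the other 5, and 31 stood apart by more than Dixon's 95% critical value. Chance gives about 1 in 20 such groups. The values below are normalized counts, with the nearest other library of the group after each.

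5xFAD replicate 1 was highest at 112 for Ctse (next 50.54) and 638 for Lcn2 (next 193). 5xFAD replicate 3 was highest at 5593 for Pde10a (next 2162). 5xFAD replicate 3 was lowest at 730.0 for Prox1 (next 999.6). 5xFAD replicate 4 was highest at 496 for Fcgr1 (next 368) and 626 for Egr3 (next 436). 5xFAD replicate 4 was lowest at 28.32 for Mrc1 (next 114). 5xFAD replicate 5 was highest at 776 for Ccl3 (next 439.5), 158 for Milr1 (next 78.58), 223 for Ccl4 (next 117), 431 for Gpr84 (next 258), 1768 for Cyba (next 1193) and 1081 for Tgfb1 (next 873). 5xFAD replicate 5 was lowest at 49607 for App (next 53988) and 904 for Arntl (next 1095). 5xFAD replicate 6 was highest at 1181 for Psen2 (next 999.8).

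WT replicate 1 was highest at 4775 for Oxt (next 459). WT replicate 2 was highest at 45821 for Shank1 (next 35033). WT replicate 2 was lowest at 66.34 for Th (next 203). WT replicate 3 was highest at 259 for Fcgr1 (next 191), 14079 for Pde10a (next 3454), 1681 for Gpr6 (next 420.3), 143 for Cox8b (next 50.23) and 2528 for Drd1 (next 726). WT replicate 4 was highest at 15.31 for Msr1 (next 4.922) and 771 for Tyrobp (next 611). WT replicate 4 was lowest at 406 for Gpr34 (next 464). WT replicate 6 was highest at 177 for Hs6st3 (next 107). WT replicate 6 was lowest at 301 for Thbd (next 427), 3417 for Csf1r (next 4129) and 249 for Itgb2 (next 345).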

How the results depend on the processing

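The count of higher genes, 355, stayed within 1.5 times under all 25 alternative settings. It was 351 with a pseudocount of 0.5, 368 with 5, 319 with no filter on low counts, 327 with a mean of at least 50 normalized counts, 379 with TMM scaling, 363 with voom, 372 with edgeR, 483 with DESeq2, 302 with moderation without trend, 370 with library weights and 287 to 351 when single libraries were left out. The count of lower genes, 39, depended more on the setting. It was 24 with no filter, 110 with DESeq2, 21 with moderation without trend and 24 without 5xFAD replicate 5 and WT replicate 4. Leaving out single libraries gave 17 to 53. It was 17 without 5xFAD replicate 1, 23 without replicate 2, 21 without replicate 4, 22 without replicate 5 and 25 without replicate 6, and 22 without WT replicate 5. The cause was not tested. Of the 39 lower genes, 18 were still called without 5xFAD replicate 5 and WT replicate 4, and 39 with DESeq2.

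Replicate numbers gave no clear pairing: same-numbered libraries correlated at -0.052 to 0.364 in their deviations from the group means. The best-correlated WT library had the same number for 5xFAD replicates 3 (0.364) and 5 (0.122) and another number for the rest. With the number as a replicate block 367 genes were higher and 57 lower.

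Among the genes named by rule, directions turned only for ones that were not called. When libraries were left out, singly or as the pair of 5xFAD replicate 5 and WT replicate 4, the log2 fold change ran from -0.616 to 0.081 for Drd1, -0.007 to 0.299 for Hba-a1, -0.016 to 1.185 for Ly6c2, -0.029 to 0.07 for Mbp, -0.306 to 0.253 for Mrc1, -0.738 to 0.0 for Pde10a, -0.091 to 0.019 for Pdgfra, -0.046 to 0.258 for Prox1, -0.343 to 0.028 for Rarres2 and -0.564 to 0.162 for Tcf7l2. For the pair it was 0.028 for Rarres2, -0.003 for Hba-a1 and 0.141 for Tcf7l2. With the ribosomal protein level as a covariate it was -0.01 for Mbp and -0.1 for Hba-a1. Of 98 called genes named by rule, 74 were called in every setting that tested them. TMM scaling moved the median of all genes by 0.006. An unadjusted p under 0.05 was reached by 2093 genes, where 905.9 would be expected with no difference.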

Other observations

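Called genes were also looked at by their place in the genome (mm10), where at least 3 neighbours called higher stood together. Each span runs from the first to the last called gene, so a high share within it follows in part from that choice. Only protein-coding genes were counted, and 1.96% of all tested genes were called higher. Not every such run is given here. A sparser one on chromosome 8, with Lyl1, Dnase2a and Man2b1, held 3 of 25 tested genes. On chromosome 1, between 170958617 and 171890718, 8 of 28 tested genes were higher, among them the Fc receptor genes Fcgr2b, Fcgr3 and Fcer1g and the SLAM family genes Ly9, Cd48 and Cd84. On chromosome 11, between 83587882 and 83706268, all 4 tested genes were higher: the chemokine genes Ccl6, Ccl3 and Ccl4, and Wfdc17. The C1q chain genes C1qb, C1qc and C1qa on chromosome 4, between 136880129 and 136898803, were all higher.

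The following values were chosen after they were seen. Growth hormone (Gh) had 0 to 52.6 normalized counts in 5xFAD libraries, and in WT libraries 77578 in replicate 4, 533.5 in replicate 5 and 0 to 71.86 in the other 4. Prolactin (Prl) had 0 to 109.1 in 5xFAD libraries, and in WT libraries 9650 in replicate 4, 1449 in replicate 5 and 0 to 136.8 in the other 4. The annotated pseudogene Gm8399 had 63.73, 78.03 and 93.29 in 5xFAD replicates 4, 3 and 5, against 4377 to 5217 in the other 3 5xFAD libraries and 2583 to 5067 in the WT libraries.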
